A study of Bos grunniens x Bos taurus and Bos grunniens with 6 samples.

Results

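The genes described here encode structural proteins of the sperm tail: ODF1, ODF2 and ODF4 of the outer dense fibres, AKAP3, AKAP4 and FSCB of the fibrous sheath, and ROPN1, ROPN1L, CABYR and SPA17, which dock onto the sheath's anchoring proteins. They were chosen by gene symbol, and each gene identifier of the deposited table was taken as a row of its own. Of the 10 symbols, 9 had a row, with 1 row each, among 18918 genes in all. No row carried the symbol ROPN1L, which was therefore not analysed here.

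Testis RNA was compared between 3 yak (Yak8, Yak9 and Yak10) and 3 cattle-yak (TES5, TES6 and TES7) by poly(A)-selected, stranded RNA sequencing. The yak were male Gannan yak kept in Linxia County, and the cattle-yak were male first-generation offspring of Jersey bulls and Gannan yak cows, kept in Xiahe County. All animals were 4 years old. Male cattle-yak are sterile, and the study asked which testis transcripts differ between the sterile hybrid and the fertile yak. The labels give castration as the source of all testes, whereas the methods of the study give euthanasia for the yak and surgical castration for the cattle-yak. The county of origin coincided with the group, as by the methods did the way of collection, so their effects and that of genotype cannot be told apart. Reads of both groups were aligned to the yak genome, and the part of the cattle alleles of the hybrid in the values was not tested.

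The sperm tail is built around a central axoneme of microtubules. In its middle and principal pieces the axoneme is flanked by outer dense fibres, stiff rods of keratin-like proteins, and in the principal piece these are wrapped by the fibrous sheath, a scaffold of longitudinal columns and ribs. The sheath holds protein kinase A and other signalling and glycolytic enzymes along the tail, mainly through the A-kinase anchoring proteins AKAP3 and AKAP4. Most of these genes are transcribed in spermatids, the haploid cells that follow meiosis.

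The deposited values are FPKM, fragments scaled to the length of the gene and to the total of fragments on genes in the library. Levels of different genes can thus be set side by side per length. All 9 genes passed the filter on low values (a mean of at least 0.5 FPKM over the 6 libraries). All 9 were lower in cattle-yak, by limma on log2(FPKM + 1) with a Benjamini-Hochberg adjusted p below 0.05 over 15042 tested genes and a log2 (foldchange) below -1. In this comparison 20.8% of all tested genes were called lower. In all 9 genes every cattle-yak value lay under every yak value, which held for 30.2% of all tested genes. The median log2 (foldchange) was -5.64 over the 9 genes and 0.51 over all tested genes. What remained in cattle-yak differed widely within the group, from 9.58% of the yak mean for SPA17 to 0.277% for FSCB. In bulk tissue, fewer cells of a type and less RNA per cell cannot be told apart.

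The whole fragments behind the values could be recovered from the steps between FPKM values, and summed to 11132098 to 13079501 per library. The library totals by which the values were scaled came out at 11175100 to 13136129 fragments. One fragment on a gene of 1 kb was worth 0.0761 to 0.0895 FPKM. Beside the tail genes, markers of other cells moved with the groups. All 7 tested round spermatid markers and all 6 elongating spermatid markers were lower in cattle-yak, with summed levels of 8.66 to 37.0 against 1237 to 1339 FPKM and of 16.5 to 68.1 against 8107 to 9852 FPKM, and 2 round spermatid markers were at 0 in TES6 and 2 in TES7. Of 10 spermatocyte rows, 2 were lower and 1 higher on the deposited scale, and 5 lower and none higher after dividing by median-of-ratios size factors. With values centred on Sertoli cell markers 8 were lower and none higher. Of all tested genes 20.8%, 27.7% and 68.1% were lower under these scalings, in that order. The spermatocyte list summed to 265 to 415 FPKM in cattle-yak and 516 to 523 FPKM in yak, with none at 0. All 13 Sertoli cell rows, all 8 Leydig cell rows and all 5 myoid cell rows were higher on the deposited scale, the Sertoli rows summing to 1708 to 1850 FPKM against 427 to 442 FPKM, with none at 0 in any library. The part of this shift in cell makeup in the values below was not tested.

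ODF1 (ENSBGRG00000008140), the major protein of the outer dense fibres, stood at 761, 706 and 915 FPKM in Yak8, Yak9 and Yak10. It was at 8.77 FPKM in TES5, 2.60 FPKM in TES6 and 0.715 FPKM in TES7, the last resting on 6 fragments. TES5 held the most and TES7 the least, and no cattle-yak value came near the yak range. The group means were 4.03 ± 4.21 FPKM in cattle-yak and 793.7 ± 108 FPKM in yak (SD, n = 3 each), a 197-fold difference. On the log2(FPKM + 1) scale the difference was -7.65 ± 0.53 (SE; limma, Benjamini-Hochberg adjusted p = 3.5e-06), the 11th lowest of the 15042 tested genes. It was -8.31 without TES5, where the means were 479-fold apart, and -7.06 without TES7.

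ODF2 (ENSBGRG00000010746) encodes an outer dense fibre protein that is also a component of centrioles and basal bodies in other cells. Its level was 827, 819 and 868 FPKM in the yak and 98.9, 61.7 and 39.2 FPKM in TES5, TES6 and TES7. The yak libraries lay close together, with a coefficient of variation of 3.15%, whereas that of the cattle-yak libraries was 45.2%. The means of 838 ± 26.4 FPKM in yak and 66.6 ± 30.1 FPKM in cattle-yak (SD, n = 3 each) differed 12.6-fold (log2 (foldchange) -3.73 ± 0.28 SE; limma adjusted p = 5.6e-06). ODF2 thus kept 7.95% of its yak level where ODF1, of nearly the same FPKM in yak, kept 0.507%.

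ODF4 (ENSBGRG00000026702), a testis-specific protein of the outer dense fibres, was less abundant in yak than either, at 231, 244 and 215 FPKM. TES5, TES6 and TES7 had 17.3, 9.51 and 3.54 FPKM, from 85, 44 and 17 fragments on a short gene model of 414 bases. The same order of the cattle-yak libraries was seen as for ODF1 and ODF2. The mean fell from 230.1 ± 14.9 to 10.1 ± 6.93 FPKM (SD, n = 3 each), which left 4.40% of the yak level (log2 (foldchange) -4.59 ± 0.42 SE; limma adjusted p = 1.8e-05). The means were 22.7-fold apart, and 35.3-fold without TES5.

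**Figure D1:**
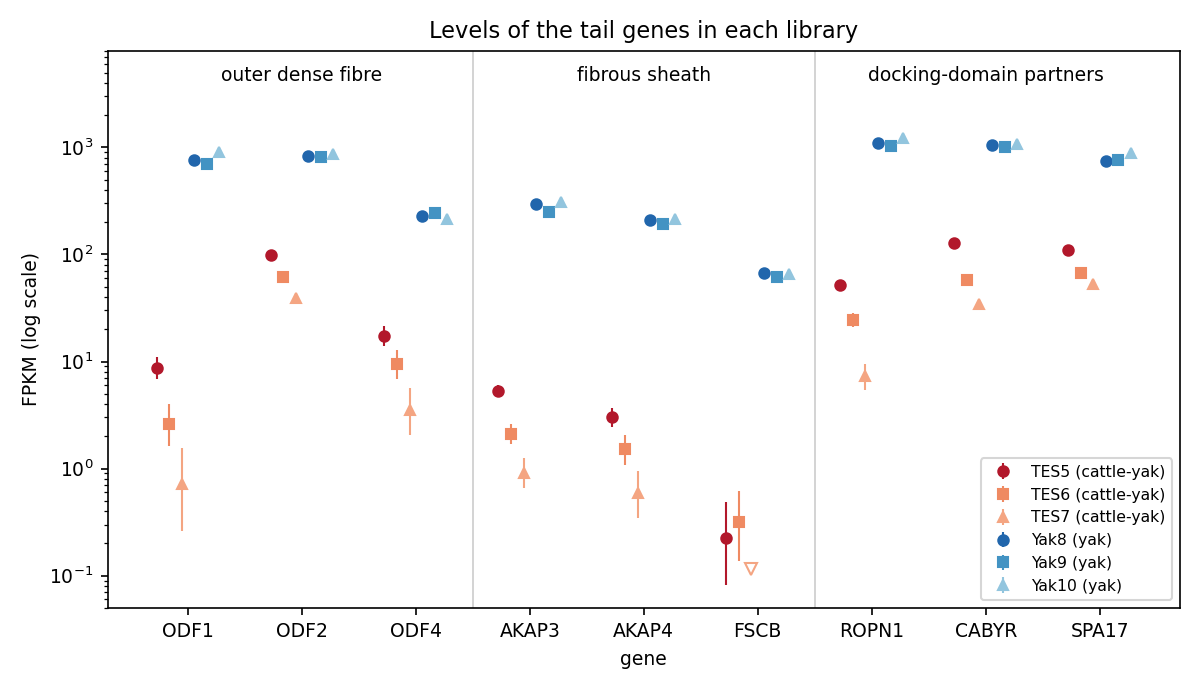
FPKM of each of the 9 tail genes (vertical axis, log scale) in the 3 cattle-yak libraries (red) and the 3 yak libraries (blue), grouped by role. Bars are exact Poisson 95% intervals of the fragment count, which cover counting error only, and the open triangle marks the limit of 3 fragments (0.114 FPKM) for FSCB in TES7, which had none. The yak points of each gene sit together and above all its cattle-yak points, and TES7 is the lowest cattle-yak library for all 9 genes.

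AKAP3 (ENSBGRG00000011443) and AKAP4 (ENSBGRG00000025520) form the ribs and columns of the fibrous sheath and bind the regulatory subunits of protein kinase A. AKAP3 measured 297, 251 and 307 FPKM in Yak8, Yak9 and Yak10 and 5.27, 2.11 and 0.915 FPKM in TES5, TES6 and TES7. AKAP4 measured 210, 194 and 216 FPKM in the yak and 3.02, 1.51 and 0.588 FPKM in the cattle-yak. Both were high in every yak and nearly gone from every cattle-yak, with the remainder largest in TES5.

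The AKAP3 means were 285 ± 29.97 FPKM in yak and 2.77 ± 2.25 FPKM in cattle-yak (SD, n = 3 each), a 103-fold difference with a log2 (foldchange) of -6.41 ± 0.37 (SE; limma adjusted p = 1.4e-06). Those of AKAP4 were 207 ± 11.7 and 1.71 ± 1.23 FPKM, a 121-fold difference with a log2 (foldchange) of -6.36 ± 0.29 (SE; limma adjusted p = 5.1e-07). Without TES5 the means were 188-fold apart for AKAP3 and 197-fold for AKAP4. With 1 FPKM added, the log2 (foldchange) of AKAP3 and AKAP4 ranked 109th and 113th lowest among all tested genes. With 0.1 FPKM added instead, AKAP4 (-7.09) was lower than AKAP3 (-6.95). The FPKM of AKAP4 divided by that of AKAP3 was 0.708, 0.772 and 0.704 in the yak and 0.573, 0.714 and 0.643 in TES5, TES6 and TES7, a pair chosen after its values were seen. The ratios of the groups overlapped, with a log2 difference of -0.18 between the group means (exact permutation p = 0.3, two-sided). Whether the ratio of these partners differs between the groups was not settled by these libraries.

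FSCB (ENSBGRG00000007337), a calcium-binding protein of the sheath that binds CABYR, was the least abundant member in every yak, at 66.8, 61.8 and 66.2 FPKM. In cattle-yak it was represented by 6 fragments in TES5 (0.224 FPKM), 8 in TES6 (0.316 FPKM) and none in TES7, where 3 fragments would have been 0.114 FPKM. These 14 fragments compare with 5769 in the yak libraries. FSCB was the only member of which TES6 rather than TES5 held the most, but the exact Poisson 95% intervals of these values overlapped (0.0821 to 0.487 FPKM and 0.136 to 0.623 FPKM). The means were 0.180 ± 0.163 and 64.9 ± 2.74 FPKM (SD, n = 3 each), or 361-fold apart, and 580-fold without TES6. The log2 (foldchange) of -5.81 ± 0.14 (SE; limma adjusted p = 6.5e-08) understates this because 1 FPKM was added to each value before taking logs.

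The remaining members carry a short domain resembling the docking domain of the protein kinase A regulatory subunit, by which they attach to AKAP3 and AKAP4. ROPN1 (ENSBGRG00000009125), ropporin, had the highest level of all members in every yak, at 1095, 1026 and 1229 FPKM in Yak8, Yak9 and Yak10, and its yak mean was the 35th highest of the table. TES5, TES6 and TES7 had 51.8, 24.4 and 7.29 FPKM. The spread among the cattle-yak was wide, a 7.12-fold difference between TES5 and TES7, but far from the yak values. The mean was 1117 ± 103 FPKM in yak and 27.8 ± 22.5 FPKM in cattle-yak (SD, n = 3 each), leaving 2.49% (log2 (foldchange) -5.64 ± 0.56 SE; limma adjusted p = 2.6e-05). The means were 40.1-fold apart, and 70.6-fold without TES5. The log2 (foldchange) was -6.26 without TES5 and -4.93 without TES7.

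CABYR (ENSBGRG00000024984), a calcium-binding protein phosphorylated on tyrosine during capacitation, was nearly as abundant in yak, at 1055, 1013 and 1075 FPKM. It was at 128, 57.7 and 34.2 FPKM in TES5, TES6 and TES7. The cattle-yak values were again highest in TES5 and lowest in TES7, and the highest of them was 7.91-fold under the lowest yak value. The means of 1048 ± 31.9 and 73.4 ± 48.9 FPKM (SD, n = 3 each) differed 14.3-fold (log2 (foldchange) -4.02 ± 0.39 SE; limma adjusted p = 2.5e-05). Without TES5 they differed 22.8-fold.

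SPA17 (ENSBGRG00000022554), sperm surface protein 17, is also found in ciliated cells. It measured 744, 770 and 882 FPKM in the yak and 109, 66.5 and 53.5 FPKM in TES5, TES6 and TES7. It had the smallest fall of the members, with 76.5 ± 29.2 FPKM in cattle-yak against 798.5 ± 73.5 FPKM in yak (SD, n = 3 each), a 10.4-fold difference (log2 (foldchange) -3.43 ± 0.23 SE; limma adjusted p = 3.3e-06). The gap between the groups was still 6.80-fold, from the highest cattle-yak to the lowest yak library.

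In the yak the members fell into tiers of level. ROPN1 and CABYR led, with ranges that overlapped each other, and ODF2, SPA17 and ODF1 followed with overlapping ranges, between 706 and 915 FPKM. AKAP3 lay below them and did not overlap ODF4, which overlapped AKAP4 (214.7 FPKM in the lowest yak for ODF4 and 216.4 FPKM in the highest for AKAP4), and FSCB stood apart at the bottom. In cattle-yak the order changed: SPA17, CABYR and ODF2 had the highest means with overlapping ranges, and ODF1 had dropped below ODF4. ODF1 exceeded ODF4 in every yak and lay under it in every cattle-yak. Together the 9 genes made up 0.889%, 0.851% and 0.944% of the summed FPKM of Yak8, Yak9 and Yak10, against 0.0713%, 0.0390% and 0.0232% of that of TES5, TES6 and TES7. The lengths behind the FPKM values ranged from 414 to 4442 bases, and 6 of the 9 were whole numbers of codons, as were 53.2% of all gene models, so gene models with and without untranslated regions may be mixed in comparisons of level between genes.

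The level that remained, as a percentage of the yak mean of the same gene, ordered the members almost identically in each cattle-yak. SPA17, ODF2 and CABYR took the first 3 places in all 3 libraries, at 11.8 to 13.7% in TES5, 5.51 to 8.33% in TES6 and 3.27 to 6.71% in TES7. ODF4, ROPN1, AKAP3 and AKAP4 then held the fourth to the seventh place in that order in every library, and ODF1 and FSCB the last 2. AKAP3 and AKAP4 were close in TES6 (0.742% and 0.730%, on 89 and 42 fragments). They were also close in TES7 (0.321% and 0.285%, on 40 and 17 fragments), so their order in these libraries was not settled. The distance between the animals differed among the genes. TES5 exceeded TES7 12.3-fold for ODF1, 7.12-fold for ROPN1, 5.76-fold for AKAP3, 5.13-fold for AKAP4 and 4.90-fold for ODF4. The fold was 3.74 for CABYR, 2.52 for ODF2 and 2.04 for SPA17. Counting error limits the order of neighbouring folds. In TES7 ODF1 rested on 6 fragments (exact Poisson 95% interval 0.263 to 1.56 FPKM), and AKAP4 and ODF4 on 17 each. Across the 3136 genes called lower the median remainder was 13.2%, above that of all 9 members. The share of those genes that kept less was 3.35% for FSCB and 7.62% for ODF1. It was 35.3% for CABYR, 37.9% for ODF2 and 42.3% for SPA17, with the other members between.

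The spermatid markers of the same libraries followed the same order of animals. The median round spermatid marker was at 1.17% of its yak mean in TES5, 0.535% in TES6 and 0.191% in TES7, and the median elongating spermatid marker at 0.668%, 0.319% and 0.151%. The median spermatocyte marker was at 114%, 64.6% and 80.9%. In each cattle-yak library AKAP3, AKAP4, ODF1 and FSCB were under 2%, as were the spermatid medians. All members but ODF1 and FSCB lay between those medians and the spermatocyte median in every cattle-yak library. AKAP3 and AKAP4 lay closest to the spermatid medians, at 1.85% and 1.46% in TES5. ROPN1 and ODF4 came next, and CABYR, ODF2 and SPA17 lay highest. Single spermatid markers varied as well, and the round spermatid marker DPY19L2 kept 11.3% in TES5, 7.20% in TES6 and 2.83% in TES7, close to ODF2 in the first pair of libraries and above CABYR in TES6. The part of spermatid number in the remainder was not tested.

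**Figure D2:**
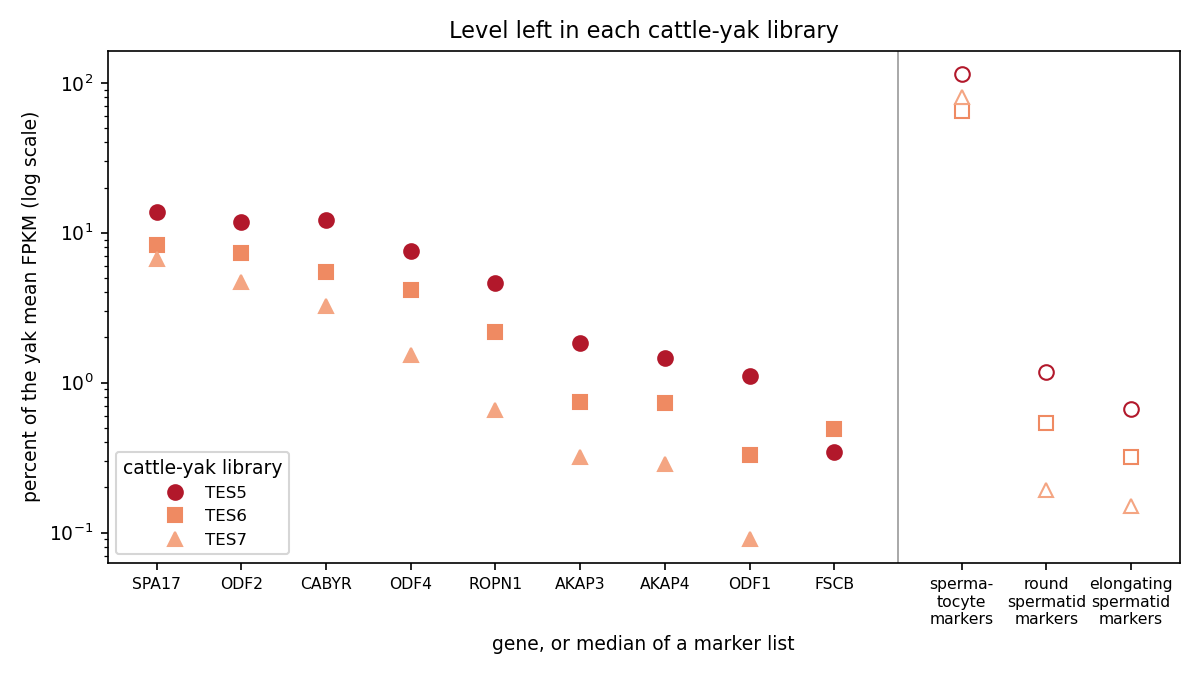
Level in each cattle-yak library as a percentage of the yak mean FPKM (vertical axis, log scale) for the 9 genes, ordered by their mean remainder (filled), and the median of 3 marker lists (open). FSCB was at 0 in TES7 and has no point there. SPA17, ODF2 and CABYR keep over 3% in every library, AKAP3, AKAP4, ODF1 and FSCB under 2%, beside spermatid medians of 0.151 to 1.17%. ODF4 and ROPN1 lie between these sets of genes in each library.

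A ratio of FPKM values within a library does not depend on how libraries are scaled to each other, and each gene was therefore also set against ODF2. ODF2 was chosen because it is also a centriole component of cells without a tail, and it was the member with the most fragments. The part of such cells in the ODF2 values, and so in these ratios, was not tested. The ODF1 to ODF2 ratio was 0.919, 0.862 and 1.05 in Yak8, Yak9 and Yak10 and 0.0887, 0.0421 and 0.0182 in TES5, TES6 and TES7. ODF1 was thus about level with ODF2 in yak and far under it in each cattle-yak, with a difference of -4.53 between the mean log2 ratios. Those of AKAP4, AKAP3, ROPN1 and ODF4 to ODF2 were also lower in every cattle-yak than in any yak, by log2 differences of -3.46, -3.28, -1.98 and -1.03. With 0.1 FPKM added to both genes, so that the 0 of TES7 could be used, the difference for FSCB was -4.34.

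SPA17 moved the other way. Its ratio to ODF2 was 0.899, 0.940 and 1.02 in the yak and 1.11, 1.08 and 1.37 in TES5, TES6 and TES7, a log2 difference of 0.31 with no overlap. The CABYR to ODF2 ratio was 1.28, 1.24 and 1.24 in the yak and 1.30, 0.935 and 0.873 in the cattle-yak, so TES5 lay above all yak and the groups overlapped (log2 difference -0.30, exact permutation p = 0.4). Of the 7 ratios tested without an added value, the other 6 had an exact permutation p = 0.1, which is the smallest that 3 against 3 libraries allow, and a Benjamini-Hochberg adjusted p = 0.117 over the 7. CABYR divided by SPA17, a pair chosen after its values were seen, was 1.42, 1.32 and 1.22 in the yak and 1.17, 0.868 and 0.640 in the cattle-yak. The groups did not overlap (log2 difference -0.60, exact permutation p = 0.1, again the smallest possible).

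**Figure D3:**
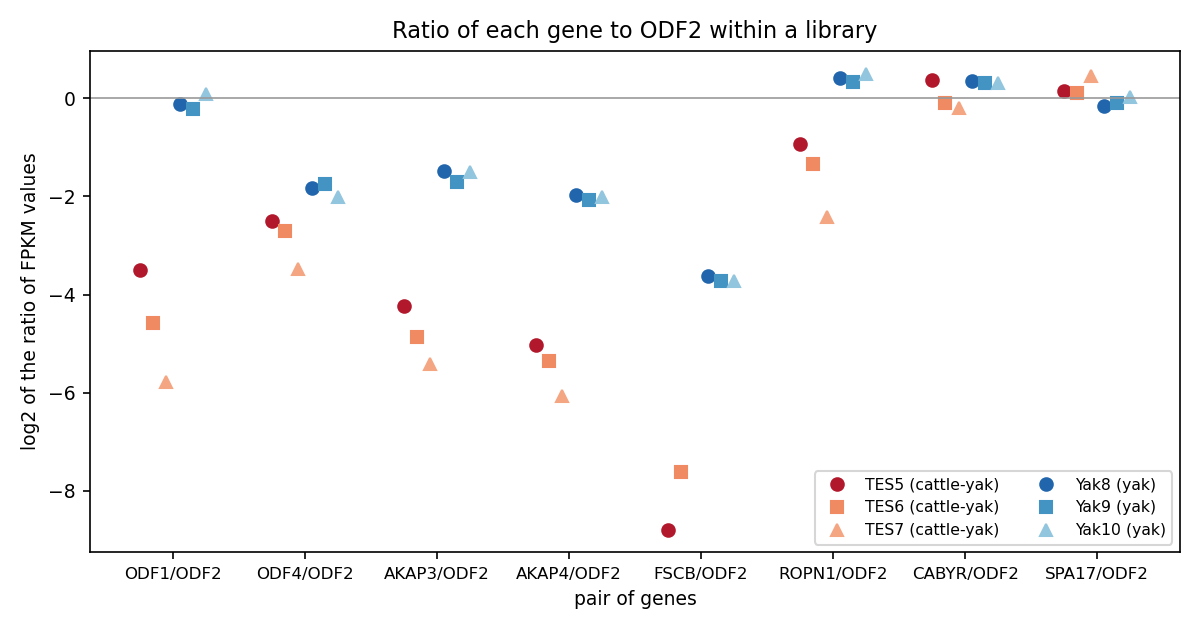
Log2 of the FPKM of each member divided by that of ODF2 in the same library, for 3 cattle-yak (red) and 3 yak (blue) libraries; FSCB has no value in TES7. The yak points lie close together for every pair, the cattle-yak points lie lower for ODF1, ODF4, AKAP3, AKAP4, FSCB and ROPN1, overlap them for CABYR and lie higher for SPA17.

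Other genes of the tail and of protein kinase A signalling were read from the same fit. Their lists were drawn up from background knowledge, but with earlier results of these data known. Of 11 tested rows for further outer dense fibre and tail shaft genes, 10 were lower, with a median log2 (foldchange) of -4.82. They included ODF3 at 0.323 ± 0.465 against 35.3 ± 4.04 FPKM and ODF3L2 at 0.443 ± 0.403 against 80.9 ± 6.61 FPKM (SD, n = 3 each), both named for the fibres, and SPAG4, which binds ODF1, at 1.31 ± 0.479 against 98.8 ± 8.32 FPKM. TSSK4, a testis kinase that acts on ODF2, had a log2 (foldchange) of -6.67, and both rows of OAZ3, the testis antizyme, had values near -7.5 (-7.52 and -7.55). The row not called was ODF2L, a paralogue of ODF2 that acts at centrioles, at 37.3, 28.5 and 30.1 FPKM in TES5, TES6 and TES7 against 25.1, 23.2 and 28.3 FPKM in the yak (log2 (foldchange) 0.31 ± 0.13 SE; limma adjusted p = 0.060). Its log2 (foldchange) was -0.29 after median-of-ratios scaling, not called, and -1.74, called lower, with values centred on Sertoli cell markers.

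Of 4 further fibrous sheath rows, 3 were lower. GAPDHS, the sperm form of the glycolytic enzyme that is bound to the sheath, was at 17.1, 8.05 and 4.91 FPKM in TES5, TES6 and TES7 and 952, 927 and 1101 FPKM in the yak (log2 (foldchange) -6.65). AKAP14 had a single fragment over the cattle-yak libraries and 26.1 ± 1.52 FPKM in yak, and FSIP2 had a log2 (foldchange) of -1.97. RHPN1, which binds ropporin, was not called at -0.78, with 0.906 ± 0.152 against 2.35 ± 0.881 FPKM, and was called lower at -1.13 after median-of-ratios scaling.

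Of 11 rows for the neck and annulus, where the tail joins the head and where the middle piece ends, 7 were lower. These were SPATA6, SUN5, PMFBP1, SPATC1L and HOOK1 of the head-tail junction, and SEPTIN12 and SLC26A8 of the annulus, with log2 (foldchange) from -5.38 for PMFBP1 to -2.26 for HOOK1. The other 4 rows, SEPTIN4 (1.63) and 3 rows of SEPTIN7 (1.41 to 1.61), septins that many tissues express, were higher on the deposited scale, but 2 of the 4 lost the call with median-of-ratios scaling and all with values centred on Sertoli cell markers.

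AKAP3 and AKAP4 belong to a large family whose other members anchor protein kinase A elsewhere in the cell. Leaving aside AKAP14, counted above with the fibrous sheath, 1 of 13 rows for other A-kinase anchoring proteins was lower on the deposited scale. After median-of-ratios scaling 2 were lower, where AKAP12 was added at -1.19, and 9 were lower with centring on Sertoli cell markers. Of all tested genes 20.8%, 27.7% and 68.1% were lower under these scalings, in that order. The row lower on the deposited scale was AKAP1, an anchor of the outer mitochondrial membrane, at 19.8, 20.1 and 18.1 FPKM in TES5, TES6 and TES7 against 170, 174 and 197 FPKM in the yak (log2 (foldchange) -3.15 ± 0.10 SE; limma adjusted p = 1.2e-07). Its mean remainder was 10.7%, with a cattle-yak SD of 1.05 FPKM around a mean of 19.3 FPKM. AKAP2, AKAP5, AKAP7 and AKAP9 were higher on the deposited scale, by 1.16 to 2.17 on the log2 scale, but median-of-ratios scaling kept the call for AKAP5 and AKAP7 alone, and centring on Sertoli cell markers removed all 4 calls and turned AKAP2, AKAP5 and AKAP9 negative. The median of these 13 rows, 0.70, lay near the median of 0.51 over all tested genes.

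The subunits of the kinase that AKAP3 and AKAP4 hold in the tail were read in the same way. Of 6 rows for protein kinase A subunits, none was lower and 2 were higher on the deposited scale, 2 were lower and 2 higher after median-of-ratios scaling, and 4 were lower and none higher with values centred on Sertoli cell markers. The 2 higher were the catalytic PRKACB (51.1 ± 2.70 against 7.91 ± 0.966 FPKM) and the regulatory PRKAR2B (78.7 ± 16.5 against 15.7 ± 1.33 FPKM). PRKACA, the catalytic subunit that sperm use, was at 93.5, 101 and 86.3 FPKM in TES5, TES6 and TES7 and 71.7, 71.0 and 64.1 FPKM in the yak. The regulatory PRKAR1A and PRKAR2A had log2 (foldchange) of -0.75 and -0.46. The sign for PRKACA turned from 0.43 to -0.18 with median-of-ratios scaling, under which PRKAR1A (-1.37) and PRKAR2A (-1.07) were called lower. Under every one of these scalings all 9 tail genes were lower, with a median of -6.15 after median-of-ratios scaling, where 27.7% of tested genes were lower, and of -7.69 with values centred on Sertoli cell markers, where 68.1% of tested genes were lower.

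**Figure D4:**
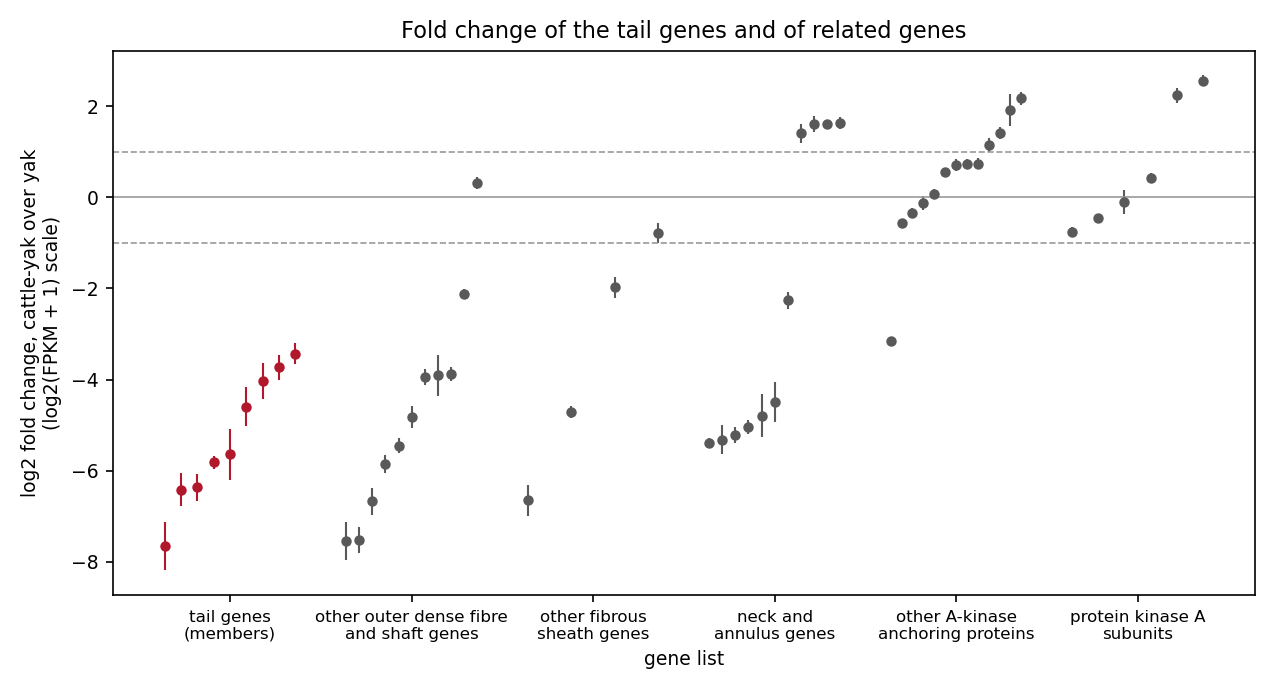
Log2 (foldchange) of cattle-yak over yak on the log2(FPKM + 1) scale, with bars of 1 SE, for the 9 tail genes (red) and 5 lists of related genes (grey), each point 1 row, ordered by value within a list. Dashed lines mark -1 and 1. The tail genes lie between -7.65 and -3.43, most other tail rows lie in the same range, and the other A-kinase anchoring proteins and kinase subunits lie between AKAP1 at -3.15 and PRKACB at 2.55. Of these rows 6 lie above 1 on the deposited scale, and none was called higher with values centred on Sertoli cell markers.

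Genes linked to the synthesis of cyclic AMP in sperm and to CREM, the transcription factor of spermatids, were lower in 6 of 7 rows. ADCY10, the soluble adenylyl cyclase of sperm, was at 1.02, 0.616 and 0.0963 FPKM in TES5, TES6 and TES7 and 12.7, 11.7 and 11.2 FPKM in the yak. The larger of the CREM rows was at 23.8, 16.0 and 6.60 FPKM against 255, 255 and 265 FPKM, leaving 5.99%, in the same order of animals as the tail genes. FHL5, a coactivator of CREM, RFX2 and SOX30, regulators of spermatid genes, had log2 (foldchange) of -5.60, -3.67 and -2.95. TAF7L, a germ cell subunit of the transcription machinery, was the row that was higher, at 131 ± 17.9 against 27.9 ± 2.63 FPKM (log2 (foldchange) 2.19), though not with values centred on Sertoli cell markers.

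The 5 named genes outside the list whose profile lay nearest to the mean profile of the 9 members, by Euclidean distance of centred log2(FPKM + 1) values over the 6 libraries, were Mak (0.168), SMCO2 (0.203), COMP (0.203), SSMEM1 (0.246) and JHY (0.266). Mak, a kinase of male germ cells, was at 4.80, 2.53 and 0.916 FPKM in TES5, TES6 and TES7 and 145, 135 and 137 FPKM in the yak. ROPN1 was the member nearest to that profile (0.881) and ODF1 the farthest (2.96).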

How the data were processed

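Testis libraries of 3 cattle-yak and 3 yak, 1 per animal, were grouped by the labels. The authors trimmed reads with Trimmomatic, aligned them with HISAT2 to the yak genome LU_Bosgru_v3.0 and computed the deposited FPKM values with Cufflinks. They used DESeq for their own comparison, which was not used here. No per-sample column was left out.

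Genes with a mean of at least 0.5 FPKM were tested with limma 3.58.1 in R 4.3.3 (variance trend) on log2(FPKM + 1), two-sided, with Benjamini-Hochberg adjustment, and called at an adjusted p below 0.05 and a log2 fold change beyond 1. Ratios of members were compared by an exact permutation test (scipy 1.17.1). Whole fragments, within 0.03 of a whole number, were recovered for 17973 genes, 100% of those with 2 or more values above 0. The steps were tested on simulated data. Fragment intervals are exact Poisson 95% intervals and cover counting error only. Alternatives changed the pseudocount, filter, scaling (median-of-ratios, TPM, quantile, or centring on Sertoli cell markers), limma prior, voom on recovered fragments, and left out each library.

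The named genes were all rows with a member's symbol, ignoring case, and the 5 nearest profiles, taken among genes with a symbol. The members and lists were chosen with earlier results of these data known. No source ties replicate numbers across the groups. Marker lists covered Sertoli, Leydig, myoid, endothelial, macrophage, spermatogonial, spermatocyte, spermatid and rete testis cells. No sequences were printed, since no reference sequence was used here.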

Additional observations from a re-analysis of the deposited data

How the results depend on the processing

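All 9 genes were called lower under each of 19 alternatives, and all 162 fold changes of single genes under alternatives kept their sign and their call. Values ranged from -9.70 to -7.06 for ODF1 and from -5.48 to -3.21 for SPA17, lowest with values centred on Sertoli cell markers and highest without TES7, and from -9.77 (voom with size factors) to -5.70 (quantile scaling) for FSCB, whose fitted value depends on the pseudocount. Folds of the group means without single libraries were added after seeing the data. Leaving out 1 library at a time gave log2 ratio differences of -0.47 to -0.18 for CABYR and 0.20 to 0.37 for SPA17 over ODF2.

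The scaling set the sign of the median for some other lists, and the cause was not tested. The medians of the further outer dense fibre, fibrous sheath, neck and annulus, and cyclic AMP lists stayed negative. This held as deposited, after median-of-ratios scaling and with Sertoli centring, and also for the spermatid markers. Tested genes were called 5023 higher and 3136 lower as deposited, 2655 and 4173 after median-of-ratios scaling, 49 and 10249 with Sertoli centring, and 5966 and 3416 by voom. Their median moved from 0.51 to 0.01 and -1.54 under the first 2 of these. Sertoli centring turned the medians of the Leydig (-0.15), myoid (-0.12), macrophage (-1.02) and spermatogonial (-0.29) markers negative, and those of the endothelium markers (-1.06), other A-kinase anchoring proteins (-1.35) and protein kinase A subunits (-1.88). The subunits' median was also negative after median-of-ratios scaling (-0.41) and voom with size factors (-0.47). Few fragments limit FSCB and ODF1 in TES7. No paired analysis was possible because the labels tie no library of one group to a library of the other, and the replicate numbers used here only follow the order of deposit.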

Other observations

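The deposited gene annotation was also read for terms of the tail, chosen after the table was seen. Under "outer dense fiber" it listed 5 genes, of which 4 were lower and 1 higher in cattle-yak on the deposited scale (limma, the same thresholds). Beside ODF1 and ODF2 these were AK1, an adenylate kinase (-5.25), RSPH1 of the radial spokes (-1.72) and DDX6, an RNA helicase (1.20). Under "sperm fibrous sheath" all 4 genes were lower, AKAP4, SPA17, AKAP14 and PGK2, the testis form of phosphoglycerate kinase (-4.83). ODF4, AKAP3, FSCB, ROPN1 and CABYR stood under neither term. Of 19 rows under "protein kinase A binding", 4 were lower, AKAP3, AKAP4, AKAP14 and SPHKAP (-5.44), where 20.8% of all tested genes were lower. On the deposited scale 4 were higher, LRRK2, Rara, AKAP7 and 1 row of RPS3 (1.96), whose other row was not called (0.98). AKAP7 lost the call with values centred on Sertoli cell markers (0.13).

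Among the markers of other cells on the deposited scale, 6 of 8 spermatogonial rows were higher (median log2 fold change 1.76), 3 of 6 endothelial rows were higher and 1 lower, 3 of 6 macrophage rows were higher and 2 lower, and none of the 3 tested rows for rete testis and efferent duct epithelium was called. After median-of-ratios scaling 5 spermatogonial rows, 1 macrophage row and no endothelial row were higher. With values centred on Sertoli cell markers none of these rows was higher. All 3 rete testis rows were then lower, as were 68.1% of all tested genes.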
